A study of Mus musculus with 4 samples.

Results

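The regions described here are the promoters of long noncoding RNA genes that lie away from protein-coding promoters. They were taken from the autosomal genes of type lincRNA (intergenic) or antisense in the GENCODE vM21 basic annotation of the mouse genome build GRCm38 (mm10). For each transcription start site (TSS) of a gene, the window began 1000 bp before it and ended 500 bp after it, and overlapping windows of a gene were joined. Of 8122 such genes, 1276 had a window that touched the window of a protein-coding gene and were left out, which kept 6846. A CpG site, counted on each strand, qualified with at least 20 reads in all 4 tumors, and a promoter was a member with 3 or more qualified sites. This gave 974 members, of which 631 were lincRNA and 343 antisense promoters, among 20135 promoters of all gene types with at least 1 qualified site. Another 5471 of the 6846 had no qualified site, 187 had 1 and 214 had 2, so their methylation was not measured by this rule.

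DNA methylation was read by reduced representation bisulfite sequencing (RRBS), which enriches CpG-rich fragments with a restriction enzyme and tells methylated from unmethylated cytosines read by read, in tumors of the murine lung adenocarcinoma line 344SQ. The parental line, from a p53R172HΔg/+ KrasLA1/+ mouse, gave 2 tumors (344SQP), and its derivative with acquired resistance to anti-PD1 gave 2 tumors (344SQR). All grew under the skin of a leg in syngeneic female 129Sv/Ev mice aged 12 to 16 weeks. Every mouse was given anti-PD1, 10 mg/kg in 4 doses from day 4, and tumors were taken 24 h after the last dose, so both groups were treated and no untreated tumor is among them. The comparison asks which methylation differences accompany acquired resistance. Each group is a single cell line grown in separate mice, so differences between the lines as cultures and differences tied to resistance cannot be told apart.

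Long noncoding RNAs are transcripts without a long open reading frame. Some guide chromatin regulators, some serve as hosts of microRNAs or small nucleolar RNAs, some silence imprinted neighbours, and for most no function is known. Their promoters more often lack a CpG island than those of protein-coding genes, and CpG-poor promoters are commonly methylated in adult tissue, whereas CpG islands at active genes are kept free of the mark. Loss of methylation over CpG-poor sequence is a common feature of cancer genomes.

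Depth differed between tumors. The coverage summed over all CpG sites was 116794455 and 138331886 calls in the 344SQP tumors, replicates 1 and 2, and 160548303 and 174689402 in the 344SQR tumors. The members held 14186 different qualified sites, with a median coverage of 99 and 111 reads in 344SQP and 132 and 137 in 344SQR tumors and a lowest coverage of 20. A member had a median of 7 qualified sites, against 36 for the 13174 autosomal protein-coding promoters with 3 or more and 26 over all promoters tested, and the most in a member was 273. Members are not independent of each other, since 52 of them shared at least 1 site with another member. Several separate windows were joined in 74 members and 168 had more than 1 TSS.

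Averaged over the 974 members, each counted once, methylation was 49.5% and 51.4% in the 344SQP tumors and 46.8% and 44.5% in the 344SQR tumors. Both resistant tumors lay below both parental tumors. The line means were 50.4% ± 1.33 (SD, n = 2) and 45.6% ± 1.60 (SD, n = 2), a difference of −4.79 percentage points that is larger than either SD (two-sided exact permutation p = 0.33, the smallest value that 2 tumors against 2 allow). Over the lincRNA members alone the difference was −5.48 points, and over the antisense members −3.51 points. The 13174 protein-coding promoters stood far lower, at 10.5% and 12.5% in 344SQP and 10.2% and 11.5% in 344SQR, with overlapping lines and a difference of −0.657 points (two-sided exact permutation p = 0.67). All 20135 promoters tested had 22.9% and 24.5% against 21.8% and 21.6%, also without overlap, a difference of −2.05 points (two-sided exact permutation p = 0.33). When every member site instead of every member was weighted equally, which gives most weight to CpG-rich members, the member difference was −1.53 points (two-sided exact permutation p = 0.67). The 96.0% of these sites outside repeats had 28.8% and 33.4% against 28.2% and 31.1%, so there the fall rested on 344SQP replicate 2. Tumors hold host cells beside cancer cells, and in bulk DNA a changed mix of cells and changed methylation within cells cannot be told apart.

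The members spread over the whole methylation scale. Methylation below 20% was found in 288 and 258 members in the 344SQP tumors and in 284 and 307 in the 344SQR tumors. At the other end, 280 and 276 members reached 80% or more in the parental tumors, against 220 and 170 in the resistant tumors. Over all promoters tested this class held 13% in each 344SQP tumor, against 10.7% and 8.63% in 344SQR. So the highly methylated class was smaller in both resistant tumors, among members as among all promoters, while the number of members under 20% overlapped between the lines. Over all promoters the share under 20% was 67.8% and 65.8% in 344SQP and 68.3% in each 344SQR tumor. Of all members, 239 stayed under 20% in every tumor and 145 at 80% or more in every tumor. Coding promoters were mostly in the lowest class, with 84.5% and 80.8% of them under 20% in the parental tumors.

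Among the 4 tumors, 344SQR replicate 2 carried the lowest value of a member most often, in 470 members (48.3%), followed by 344SQR replicate 1 with 209, 344SQP replicate 1 with 203 and 344SQP replicate 2 with 92. The highest value lay in a parental tumor in most members, 347 in replicate 1 and 374 in replicate 2, against 89 and 164 in the resistant tumors. Relative to the parental mean, 151 members were lower by at least 10 points in 344SQR replicate 1 and 298 in replicate 2, and 25 and 83 were higher by as much. The resistant tumors therefore differed from each other in size of the shift, with replicate 2 farther from the parental tumors. Across the 974 members the methylation levels of any pair of tumors ran together, with Pearson's r from 0.880 (344SQP replicate 1 and 344SQR replicate 2) to 0.973 (both replicates 1). These points share CpG density and genomic place, and the r is a description only.

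By the site test, a likelihood ratio test of the reads at each CpG combined over the promoter by Stouffer's z score, 579 of 974 members (59.4%) passed a false discovery rate (FDR) of 0.05, against 38.5% of all 20135 promoters tested. Lower in 344SQR were 473 members (48.6%), against 29.5% of all promoters, and higher were 106 (10.9%), against 9.03%. The share of hypomethylated members was thus above the background, and the share of hypermethylated members near it. At like methylation, lower calls were made in 28.0% of members and 17.3% of all promoters under 20% in all tumors, in 48.4% and 42.6% at 20% to 80%, in 33.8% and 33.7% at 80% or more, and in 73.9% and 63.8% of those that crossed these classes, which held 207 of the 473 lower members. Higher calls were made in 4.18% and 3.79%, 19% and 27.1%, 4.14% and 5.90%, and 11.1% and 16.3%. The gap to the background in lower calls was thus smaller within classes than over all members. These classes use the values of all 4 tumors, the resistant ones included, so crossing them is itself tied to a difference between tumors. The shares by class are therefore a description. Coding promoters passed in 32.1%. This test counts reads as if each were independent, so variation from tumor to tumor within a line does not enter it. In 6 of the 579 members the z score and the difference of line means had opposite signs, and the direction given here is that of the means.

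Both resistant tumors lay below both parental tumors in 369 members (37.9%), against 32.5% of all promoters, and above both in 59 (6.06%), against 7.58%. These shares are close to the background. Of the 579 members that passed the site test, 355 (61.3%) also showed no overlap between the lines, close to the 58.5% of all promoters that passed. The median difference of a member was −2.63 points, against −0.233 over all promoters and −0.150 over coding promoters. A lower mean was seen in 710 members (72.9%, against 67.7% of all promoters) and a higher one in 264. The median absolute difference between the line means was 4.26 points. Between single tumors of different lines the median gap of a member ran from 3.64 to 7.67 points. Between the replicates of a line it was 4.29 points in 344SQP and 5.74 in 344SQR, so the gaps between and within lines overlapped.

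With edgeR's quasi-likelihood test, which counts the spread between tumors, and the line as the only factor compared, 0 of 974 members passed an adjusted p of 0.05, against 0.0696% of the 20124 promoters it could fit. An unadjusted p under 0.05 was reached by 107 members (11%), against 8.62%, of which 101 were lower and 6 higher in 344SQR. With the replicate number as a block edgeR did call members, as given with the other processing choices, but no shared batch is stated for tumors of a number. limma called 0 members, with 151 (15.5%) at an unadjusted p under 0.05 against 10.2% of all promoters. The calls of the site test below are therefore given as a description of these 4 tumors.

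Large differences ran mostly in a single direction. Lower by at least 10 points in the resistant line were 223 members (22.9%), against 9.64% of all promoters and 3.54% of coding promoters, whereas 30 members (3.08%) were higher by as much, against 1.69% of all promoters. At 20 points the counts were 56 (5.75%, against 2.96%) and 3 (0.308%, against 0.253%). All promoters ran mostly the same way, with 1941 lower and 341 higher by 10 points. The middle of the range was narrow on the upper side: 5% of members lay below −20.5 points and 5% above 6.98 points.

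The size of the difference went with the level of a member in the parental tumors. The 166 members with a parental mean under 5% averaged 1.95% and 2.11% in 344SQP and 1.76% and 1.82% in 344SQR. Members between 20% and 40%, 116 in number, had 28.5% and 34.1% against 28.3% and 30.1%, a difference of −2.06 points. Here 344SQP replicate 1 lay between the resistant tumors, so the lines overlapped and the fall rested on 344SQP replicate 2. The 166 members between 60% and 80% had 70.5% and 70.7% against 65.1% and 58.3%, a difference of −8.89 points, and the 276 members from 80% had 90.4% and 90.3% against 86.3% and 80%, a difference of −7.18 points. In both upper classes the resistant tumors lay below the parental tumors and apart from each other, so both differences were smaller without 344SQR replicate 2. Since the parental values enter both the classes and the difference, the order of the classes is a description.

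CpG content separated the members in the same way. The ratio of observed to expected CpGs in the window had a median of 0.365 in members and 0.629 in coding promoters, and 57.8% of members had a ratio under 0.4, against 13.1% of coding promoters and 26.1% of all. The 563 CpG-poor members (ratio under 0.4) had 64.8% and 64.6% methylation in 344SQP and 60.3% and 54.2% in 344SQR tumors, with no overlap and a difference of −7.44 points, and 341 of them passed the site test as lower and 35 as higher (6.22%, against 10.1% of coding promoters in this class). The 363 members of middle ratio (0.4 to 0.75) had 30.9% and 35.7% against 30.6% and 33.3%, with 125 lower (34.4%, against 21.5% of coding promoters in this class) and 59 higher (16.3%, against 9.65%). The 48 members over 0.75, which resemble CpG islands in density, had 9.93% and 14.4% against 10.2% and 15%, so their lines overlapped. Their mean differed by 0.431 points, and 7 were lower (14.6%, against 11.7% of coding promoters in this class) and 12 higher (25%, against 8.02%). These 12 included Gm26917, at a copy of the ribosomal RNA repeat, where the line means differed by 0.0481 points. The difference was thus largest in CpG-poor members, and it was smaller there without 344SQR replicate 2, which leaves 60.3% in the resistant line.

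Set against coding promoters within each tumor, members were higher by 39.0 and 38.8 points in 344SQP and by 36.6 and 33.0 points in 344SQR. The gap was 38.9 ± 0.113 and 34.8 ± 2.57 points (SD, n = 2), narrower by −4.13 points in the resistant line (two-sided exact permutation p = 0.33), and the change was −2.31 points without 344SQR replicate 2. At like CpG content the gap was smaller. CpG-poor members exceeded the 1721 CpG-poor coding promoters by 27.4 and 24.8 points in 344SQP and by 24.8 and 19.9 in 344SQR, values that meet between the lines (difference −3.69 points, two-sided exact permutation p = 0.67, and −6.15 to −1.23 points with a tumor left out). CpG-poor coding promoters were themselves lower in 344SQR, by a mean of −3.75 points and with 49.2% of them passing the site test as lower, against 60.6% of CpG-poor members. In the middle class the gap was 23.4 and 25.9 points against 23.2 and 24.0, and in the CpG-dense class 6.33 and 9.63 against 6.59 and 10.1, with overlap between the lines in both. Members thus remained more methylated than coding promoters in every class and every tumor.

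The number of qualified sites went with level as well. The 308 members with 3 or 4 sites had 65.6% and 64.4% methylation in 344SQP and 60.6% and 53.1% in 344SQR, and a median difference of −6.94 points. For the 457 members with 5 to 19 sites the values were 53.4% and 55.6% against 50.8% and 49.0%, and for the 209 members with 20 or more they were 17.2% and 22.7% against 17.5% and 22.0%, with a median difference of −0.111 points. Only the last class had overlapping lines. At the edge of the rule, the 160 members with exactly 3 sites averaged 65.5% and 64.0% in 344SQP and 59.5% and 51.7% in 344SQR, and the 214 promoters left out with exactly 2 sites 69.8% and 69.3% against 64.6% and 57.4%.

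Members far from coding genes showed the larger differences. The median distance from a member to the nearest protein-coding TSS was 28969 bp. The 345 members over 50 kb away had a median difference of −4.98 points, with 206 lower and 23 higher by the site test (66.4% called, against 38.5% of all promoters). Those at 10 to 50 kb, 356 members, had −1.94 points with 151 lower and 41 higher (53.9% called), and the 273 members under 10 kb away had −1.20 points with 116 lower and 42 higher (57.9% called). The called share thus did not follow the order of distance. CpG content moved along with distance, from a median ratio of 0.339 in the far class to 0.414 in the near class, and its part in the order was not tested.

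A member's TSS lay outside any coding gene in 634 cases, inside a coding gene on its other strand in 328 and on its same strand in 12. Outside coding genes, methylation was 45.7% and 47.1% in 344SQP and 42.5% and 39.5% in 344SQR. Inside them on the other strand it was higher, at 57.0% and 59.4% against 55.0% and 53.9%. The lines did not overlap in either class. Antisense promoters within gene bodies were thus the more methylated group. The site test called a like share of both classes, 58.2% inside (147 lower, 44 higher) and 60.4% outside coding genes, against 38.5% of all promoters.

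Repeat content and place within the window were also read. In the 21 members with over 50% of the window masked as repeats, methylation was 79.3% and 75.7% in 344SQP and 70.9% and 59.9% in 344SQR, and 18 of the 21 were lower and 0 higher by the site test (85.7% called, against 59.4% of all members and 38.5% of all promoters). The 810 members with under 25% masked had 46.9% and 49.3% against 44.5% and 42.8%. Of the member sites themselves, 4.02% lay on masked bases, and these had 30.7% and 31.9% in 344SQP against 28.9% and 28.5% in 344SQR. By distance from the TSS, sites 500 to 1000 bp upstream had 35.3% and 39.4% against 34.4% and 36.3%, sites within 500 bp upstream 27.3% and 31.6% against 26.9% and 29.5%, and sites up to 500 bp downstream 27.8% and 32.8% against 27.1% and 30.3%. The lines overlapped in each of these bins, where CpG-rich members supply most sites. Coding promoters had 5.45% and 7.28% in 344SQP within 500 bp upstream.

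Every autosome held members, from 27 on chromosome 19 to 80 on chromosome 5. The median difference was negative on each chromosome except 19, where it was 0.0232 points, with 7 members lower and 5 higher by the site test. It was farthest from 0 on chromosome 4, with a median of −6.10 points, 38 lower and 4 higher of 60 members (70% called). Chromosome 10 followed, with −5.76 points, 32 lower and 2 higher of 56 (60.7% called, near the 59.4% of all members). Over all promoters 38.5% were called. The median CpG ratio was 0.298 on chromosome 4, 0.350 on chromosome 10 and 0.443 on chromosome 19, and its part was not tested.

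The members named first are the 12 lower and 8 higher in 344SQR with the largest difference of line means among those that passed the site test with at least 5 sites and no overlap between the lines (203 lower and 26 higher qualified). They were picked for the size of their difference and for separate lines, so neither is a sign of stability. The largest fall was at 1190028D05Rik, a lincRNA gene on chromosome 8 (promoter chr8:52355611-52357111, plus strand) whose nearest coding TSS, that of Aga, lies 1155116 bp away. Its 6 sites averaged 83.3% and 73.7% in 344SQP and 55.6% and 41.5% in 344SQR, a difference of −29.9 points with coverage from 35 to 246 reads and all 6 sites lower. The parental tumors were high and the resistant tumors at intermediate levels, and the Aga promoter, the start of a lysosomal enzyme gene, was unmethylated in all tumors at 1.23%, 0.524%, 0.638% and 0.776%.

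Gm44761, on the same chromosome (chr8:9799194-9800694), had 65.9% and 57.2% in 344SQP and 43.6% and 22.3% in 344SQR over 6 sites, a difference of −28.6 points. At 1700025J12Rik on chromosome 7 the 5 sites averaged 75.7% and 72.1% against 56.4% and 35.9%, a difference of −27.7 points. Gm42838, an antisense gene on chromosome 5, had 42.9% and 65.9% against 26.7% and 28.2% over 15 sites (−27.0 points). In the first 2 of these the resistant tumors were far apart (−18.0 and −17.5 points without 344SQR replicate 2), and in Gm42838 it was the parental tumors that were.

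Gm10425, antisense within Exoc3l4 on chromosome 12, was low in the resistant line: 9 sites averaged 19.9% and 37.5% in 344SQP and 3.53% and 3.48% in 344SQR (−25.2 points). Both resistant tumors were close to unmethylated there, while the parental tumors differed from each other. Gm16019 (58.7% and 54.2% against 36.7% and 26.1%), Gm829 (68.3% and 64.8% against 58.0% and 25.4%) and Gm43598 (40.7% and 63.5% against 29.4% and 25.5%) followed, each with a line difference near −25 points: −25.1, −24.8 and −24.6. Without 344SQP replicate 2, Gm43598 had −13.3 points, Gm42838 −15.4 and Gm10425 −16.4. In Gm829 the difference rested on 344SQR replicate 2 (−8.56 points without it), whereas the other resistant tumor was nearer to the parental values.

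Of the remaining 4, Gm45241 had 76.3% and 69.9% against 67.1% and 30.1% (−24.5 points), again with replicate 2 apart (−5.97 points without it), and Gm31822 had 84.2% and 66.4% against 66.0% and 37.9% (−23.4 points), where 344SQP replicate 2 and 344SQR replicate 1 nearly met (−37.4 to −9.33 points with a tumor left out). Gm28167 and Gm28166 are neighbours on chromosome 9 (chr9:100323024-100324524 and chr9:100449322-100450822), near Il20rb, which encodes a subunit of the interleukin-20 receptor and has no qualified site. Their values were 88.6% and 87.1% against 69.9% and 58.3% (7 sites, −23.7 points) and 89.1% and 86.9% against 68.4% and 61.4% (8 sites, −23.2 points). Both were highly methylated in both parental tumors, with little spread, and all of their sites were lower in 344SQR. The adjusted p of edgeR's quasi-likelihood test ranged over the 12 from 0.225 (Gm10425) to 0.741 (Gm31822).

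The rise was largest at AC113961.1, a lincRNA gene on chromosome 19 (chr19:29066347-29067847), where 6 sites averaged 23.4% and 38.1% in 344SQP and 47.9% and 63.0% in 344SQR, a difference of 24.7 points. The promoter of the nearest coding gene, Ak3, was unmethylated, from 0.969% to 1.09%. 9330171B17Rik, antisense within Kif7, a kinesin of the primary cilium in Hedgehog signalling, had 44 sites at 40.6% and 41.1% against 51.1% and 67.1%, a difference of 18.2 points with 43 sites higher and 1 lower. The parental tumors agreed closely there and the resistant tumors did not (10.2 points without 344SQR replicate 2). The promoter of Kif7 itself was at 5.39% and 6.86% in 344SQP and at 2.68% and 3.41% in 344SQR, and passed the site test as lower.

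Gm49012, antisense within the melanopsin gene Opn4, had 37.7% and 48.0% against 53.8% and 65.1% (16.6 points), and Gm20511, antisense within Fmnl1, had 73.0% and 72.3% against 89.1% and 85.1% (14.4 points). In Gm20511 the replicates of each line lay close together. Gm26654 and 4930477E14Rik start on opposite strands of chromosome 3 and share their 9 sites, so they are a single measurement: 24.7% and 47.5% against 49.1% and 51.7% (14.3 points), with 344SQP replicate 1 apart from the rest (2.93 points without it). AI646519, antisense within the transcription factor gene Pax1, had 15.2% and 24.0% against 24.8% and 40% (12.9 points), and the Pax1 promoter was higher too, with 29.5% and 34.0% against 38.0% and 56.1%. AC166748.2 had 16.2% and 21.1% against 22.0% and 40.9% (12.8 points). Without 344SQR replicate 2 the difference was 5.25 points at AI646519 and 3.31 at AC166748.2, and it was also smaller at Gm49012, with 53.8% left in the resistant line. For these 8, edgeR's adjusted p ranged from 0.509 (Gm20511) to 0.706 (AC166748.2).

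The sequence of the densest stretch of qualified sites is shown for the 3 lower and the 3 higher of these members with the largest differences, since these stretches carry the values. Each is at most 300 bases of the plus strand of GRCm38, the strand of transcription of all 6 genes, in lower case with the qualified CpGs in capitals. For the lower members they lie at chr8:52356577-52356810 (1190028D05Rik), chr8:9799984-9800199 (Gm44761) and chr7:121589308-121589607 (1700025J12Rik).
1190028D05Rik: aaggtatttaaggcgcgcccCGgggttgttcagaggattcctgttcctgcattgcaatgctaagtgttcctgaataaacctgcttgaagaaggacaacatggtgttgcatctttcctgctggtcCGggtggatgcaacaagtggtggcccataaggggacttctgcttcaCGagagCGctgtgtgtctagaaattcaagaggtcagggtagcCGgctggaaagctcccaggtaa
Gm44761: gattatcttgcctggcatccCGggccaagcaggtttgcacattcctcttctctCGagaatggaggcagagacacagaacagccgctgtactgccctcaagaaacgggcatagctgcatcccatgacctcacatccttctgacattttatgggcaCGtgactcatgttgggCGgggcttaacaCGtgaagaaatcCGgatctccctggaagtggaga
1700025J12Rik: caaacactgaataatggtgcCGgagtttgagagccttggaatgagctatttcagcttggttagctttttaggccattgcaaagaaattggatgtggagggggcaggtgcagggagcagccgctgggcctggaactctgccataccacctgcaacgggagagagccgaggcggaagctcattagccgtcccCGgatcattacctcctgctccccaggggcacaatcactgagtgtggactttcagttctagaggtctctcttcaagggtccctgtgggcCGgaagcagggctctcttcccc
The 1190028D05Rik stretch spans the TSS, with sites from −14 to 179 bp, and 5 of its 7 CpGs qualified. Its most changed site, at 179 bp, fell from 75.9% and 62.5% to 40.1% and 19.4%, and its least changed, at 137 bp, had 64.6% and 45.7% against 50.5% and 23.0%. In Gm44761 the sites lie from −190 to −15 bp upstream. The CpG at −190 bp was high in all tumors (91.7% and 90.0% against 94.6% and 73.7%), while the CpG at −27 bp had 71.8% and 52.2% against 24.6% and 2.54%. The difference was therefore concentrated next to the TSS. The letters CACGTG, an E-box bound by basic helix-loop-helix factors, occur there 2 times. In 1700025J12Rik the sites lie from −575 to −316 bp, and at −317 bp methylation was 81.1% and 60.6% against 55.0% and 13.2%.

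The stretches of the higher members lie at chr19:29067319-29067486 (AC113961.1), chr7:79710093-79710343 (9330171B17Rik) and chr14:34591046-34591169 (Gm49012).
AC113961.1: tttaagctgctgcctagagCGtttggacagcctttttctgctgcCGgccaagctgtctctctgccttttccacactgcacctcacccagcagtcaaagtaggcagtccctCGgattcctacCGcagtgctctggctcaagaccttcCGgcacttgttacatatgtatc
9330171B17Rik: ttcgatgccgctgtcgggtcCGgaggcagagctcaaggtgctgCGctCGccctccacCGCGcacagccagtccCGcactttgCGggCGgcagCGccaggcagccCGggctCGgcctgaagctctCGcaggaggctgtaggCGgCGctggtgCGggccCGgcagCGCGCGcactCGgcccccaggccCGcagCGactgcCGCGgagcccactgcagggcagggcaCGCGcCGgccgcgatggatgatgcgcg
Gm49012: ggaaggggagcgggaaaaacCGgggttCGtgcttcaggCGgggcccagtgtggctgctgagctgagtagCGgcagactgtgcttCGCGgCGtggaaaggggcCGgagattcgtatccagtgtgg
In AC113961.1, the site at −8 bp rose most, with 13.1% and 33.3% in 344SQP against 56.4% and 82.4% in 344SQR, while the site at 94 bp had 20.6% and 35.8% against 31.2% and 37.4%, so the lines were separate at −8 bp and overlapped at 94 bp. The 9330171B17Rik stretch is CpG-dense, with 27 qualified CpGs of 34 and 39 qualified sites. Its methylation was lower near the TSS in every tumor: the site at −170 bp had 50.0% and 76.9% against 65.8% and 91.0%, the site at −4 bp 22.4% and 6.72% against 28.7% and 33.9%. At −32 bp the gap was widest, with 36.2% and 29.8% against 64.6% and 85.2%. In Gm49012 the outermost upstream site, at −26 bp, was alike in all tumors (29.3%, 33.3%, 32.2% and 30.5%), and the site at 24 bp had 42.4% and 49.7% against 71.8% and 86.7%.

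Short motifs were counted on both strands in the 1501 bp window of the TSS at the 5′ end of each gene. CCGG, the cut site of the restriction enzyme MspI that is usual in RRBS, occurred in 98.9% of members and 98.4% of all promoters, with a median of 4 and 7 copies. The E-box CACGTG was found in 25.5% of members and 25.4% of all promoters, and TGACGTCA, the full cyclic AMP response element, in 3.08% and 4.14%. TATAAA, which binds the TATA-binding protein, occurred in 43.2% and 42.9%. Among members lower in 344SQR the shares were 26.4% for CACGTG and 43.1% for TATAAA, and among higher members 27.4% and 34.9%. A match is only a description of the letters in the window.

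Other members stood out and were chosen after their values were seen. The largest fall of all was shared by Gm16579 and Gm43055, which start 7 bp apart within Tmprss11e on chromosome 5 and have the same 3 sites: 92.5% and 96.0% in 344SQP against 47.5% and 25.3% in 344SQR, a difference of −57.8 points at 67 to 187 reads. The smallest p of edgeR's test among members belonged to Gm20703 on chromosome 17, with 11.3% and 18.5% against 1.67% and 1.47% over 17 sites, all lower (−13.3 points, edgeR adjusted p = 0.112). Gm41293, antisense within Spag1, had 18.9% and 23.2% against 5.28% and 4.10% over 23 sites, all lower (−16.4 points, edgeR adjusted p = 0.112). Both were nearly unmethylated in the resistant tumors with little spread. Gm15556, antisense within the forkhead gene Foxp4, had 15.2% and 22.9% against 2.86% and 4.21%, and Gm32351 had 13.8% and 17.4% against 4.68% and 4.36% over 25 sites, all lower. In these 4 the parental tumors carried partial methylation and the resistant tumors almost none, while the promoters of Spag1 and Foxp4 were unmethylated in every tumor, at no more than 1.66%.

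Of the genes of known roles, the cancer and nuclear list held 29 annotated genes, 11 of them members. All 11 stayed under 20% in all tumors, and 2 passed the site test as lower and 0 as higher (18.2% called, median difference −0.141 points, against 38.5% and −0.233 over all promoters). Malat1 and Neat1, the RNAs of nuclear speckles and paraspeckles, were unmethylated, Malat1 at 0.854% and 0.846% in 344SQP and 0.560% and 1.30% in 344SQR and Neat1 at 1.69% and 1.18% against 1.73% and 2.05%. Pvt1, the neighbour of Myc, had 1.04% and 0.663% against 0.680% and 0.744%, and Lncpint 2.55% and 1.81% against 2.25% and 1.81%. The lines overlapped or differed by under 1 point in all 4.

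The snoRNA hosts Snhg6, Snhg7os and Snhg20 stayed between 0.387% and 1.70% in all tumors, and Mir17hg, the precursor of a microRNA cluster driven by Myc, between 0.788% and 1.04%. Epb41l4aos had 1.99% and 2.45% against 1.68% and 1.32%. The members of the list that passed the site test were Trp53cor1 (lincRNA-p21, a target of p53 beside Cdkn1a), with 12.7% and 17.4% against 9.65% and 13.3% and overlapping lines, and Snhg12, with 18.4% and 19.6% against 17.5% and 15.9%. Near Snhg12 the coding promoter of Rab42, 5292 bp away, moved the other way, from 3.65% and 3.69% to 16.5% and 35.5%.

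Imprinted genes are methylated on a single parental copy at their control regions. Of 12 on the list, 3 were members, and 1 was lower by the site test and 0 higher (33.3% called, against 38.5% of all promoters). H19, expressed from the maternal copy next to Igf2, had 52.8% and 43.9% in 344SQP and 55.0% and 49.6% in 344SQR over 7 sites. Nespas, antisense at Gnas, had 52.6% and 62.5% against 54.7% and 63.8%, so in both genes the lines overlapped. With the TSS at the 5′ end alone Nespas had −11.4 points, against 1.71 here, so its value depended on the window. Airn, the paternally expressed antisense RNA that silences Igf2r, had 54.5% and 53.2% against 48.1% and 47.6%, a fall of all 7 sites (−6.00 points, FDR 0.00827) with the replicates of each line close together. By edgeR its adjusted p was 0.873. The Igf2r promoter passed the site test as higher, with 41.3% and 46.0% against 45.1% and 55.9%, but its lines overlapped. Without 344SQR replicate 2 the resistant value left, 45.1%, lay between the parental values. All 3 stayed at intermediate levels in every tumor.

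The developmental list had 41 annotated genes and 10 members, mostly antisense to homeobox and other transcription factor genes, and all 10 passed the site test, 8 lower and 2 higher (100% called, median difference −4.71 points, against 38.5% and −0.233 over all promoters). For promoters of any type at 20% to 80% in all tumors, where most of these members lie, the called share was 69.7%, and the adjusted p of edgeR's test in the 10 ran from 0.486 to 0.978. Dlx4os fell from 8.24% and 22.4% to 5.30% and 1.59% over 26 sites without overlap (−4.80 points without 344SQP replicate 2), and the Dlx4 promoter stayed between 0.900% and 1.61%. Tbx3os2 had 4.54% and 5.21% against 1.79% and 0%, and Foxo6os 71.2% and 69.1% against 63.4% and 52.6%. In these 3, and in the highly methylated Gata5os (96.5% and 95.7% against 93.3% and 94.6%), the lines were separate.

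In the other developmental members they overlapped, and in all of these but Hoxaas3 replicate 2 was above replicate 1 in both lines. Evx1os had 45.7% and 60.1% against 35.9% and 51.8%, Tlx1os 46.2% and 59.1% against 42.2% and 47.8%, and Tbx3os1 34.3% and 49.0% against 32.1% and 40.2%. With a tumor left out, the difference of Evx1os ran from −17.0 to −1.04 points (−9.01 with all) and that of Tlx1os from −14.1 to −1.14 (−7.61 with all). Hoxb3os, with 34.5% and 44.9% against 30.7% and 45.7%, differed by −1.49 points, far less than its replicates. Higher in the resistant line were Nkx2-2os (27.7% and 51.3% against 35.5% and 58.3%) and Hoxaas3 (61.8% and 56.8% against 69.9% and 54.2%). For Nkx2-2os the difference of 7.40 points was smaller than the gap of the replicates in either line, and its direction turned without 344SQP replicate 1 (−4.39 points) or 344SQR replicate 2 (−4.01 points). Other directions turned as well. Without 344SQP replicate 2 the difference was 3.73 points at Hoxb3os and 1.9 at Tbx3os1. Without 344SQR replicate 1 the resistant value left was above both parental values at Hoxb3os (45.7%) and below both at Hoxaas3 (54.2%).

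Of 8 microRNA hosts, 5 were members, 2 lower and 1 higher by the site test (60% called, against 38.5% of all promoters). Mir124-2hg, a host of the neuronal miR-124, had 28.0% and 50.3% against 27.1% and 39.0%, and Mir124a-1hg 14.6% and 18.6% against 13.2% and 16.0%, both with overlapping lines. Without 344SQP replicate 2 the direction of both turned, to 5.05 points at Mir124-2hg and 0.0453 at Mir124a-1hg. Mir9-3hg, a host of miR-9, rose from 9.12% and 15.3% to 16.8% and 23.4% over 47 sites without overlap (7.92 points, and 4.66 to 11.2 with a tumor left out, with an edgeR adjusted p of 0.556). Mir155hg, a host of miR-155 that is induced in activated lymphocytes and macrophages, was unmethylated at 2.97% and 3.55% against 3.43% and 3.21%.

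The immune list had 14 annotated genes and 3 members: Mir155hg, Mirt1 (56.9% and 59.3% against 64.3% and 44.4%, not called) and Gm26917. Gm26917 lies on chromosome 17 next to AY036118 and Gm42418, at a copy of the ribosomal RNA repeat, which the genome holds in many copies whose reads cannot be told apart. Coverage there reached 28652 reads. Methylation was 33.8% and 49.5% against 32.0% and 51.4% at Gm26917 over 273 sites, 39.2% and 49.3% against 37.0% and 55.1% at AY036118, and 35.1% and 48.7% against 35.3% and 51.1% at Gm42418. In all 3 both replicates 2 were above both replicates 1, so the lines overlapped. Although Gm26917 passed the site test (FDR 1.27e-14), its line means differed by 0.0481 points and its z score, −7.98, had the opposite sign.

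Members whose TSS lay within a coding gene could be set beside that gene's own promoter in 291 pairs with 276 different coding genes. The host promoter was under 20% in all tumors in 213 pairs (73.2%), and in 71 of these the member was at 80% or more in all tumors. The median level over the tumors was 67.5% for members and 3.18% for hosts, and the median difference between the lines −1.30 and −0.285 points. The site test called 125 of these members (43.0%) and 100 hosts (34.4%) lower, against 48.6% of all members, 22.7% of coding promoters and 29.5% of all promoters. Higher were 40 members (13.7%) and 31 hosts (10.7%), against 9.03% of all promoters. Both were lower in 47 pairs, both higher in 7 and of opposite direction in 28. Across the 291 pairs the differences had a Pearson's r of 0.00604, a description of pairs that share tumors and depth.

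For the cell types a tumor may hold, promoter methylation of marker genes is the only measure in these data, since no RNA was read. Of 12 leukocyte markers, 3 had a qualified site, with a mean of 59.2% and 66.1% in 344SQP and 53.2% and 49.8% in 344SQR, and 2 passed the site test as lower and 0 as higher. Of 8 epithelial markers, 6 had a site, with 13.1% and 10.8% against 11.6% and 8.74%, 3 lower and 1 higher. Epcam and Cdh1, which define epithelial cells, were at 4.51% to 5.77% and 5.76% to 6.24%. Of 6 endothelial and fibroblast markers, 4 had a site, with 50.4% and 56.2% against 39.3% and 52.4%, 1 lower and 0 higher. Over all promoters the site test called 29.5% lower and 9.03% higher. Ptprc, the common leukocyte marker, had no qualified site. The leukocyte mean was lower in both resistant tumors, and the part of the cell mix in the member differences was not tested.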

How the data were processed

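RRBS tables of 4 tumors were used, 2 of 344SQP and 2 of 344SQR. The authors trimmed reads with Trim Galore 0.4.1 and cutadapt 1.9.1 and mapped them to mm10 with Bismark and Bowtie 1.1.2. The deposited tables give, per CpG and strand, the coverage (read counts) with percent methylated and percent unmethylated, unnormalized and with replicates apart. Methylated reads were taken as coverage times percent, rounded.

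A promoter's value was the mean percent of its qualified sites. The main test followed the study's methods: the likelihood ratio of a logistic model per site with the line as only factor (as in methylKit), p not below 2.2e-16, then signed Stouffer z scores per promoter and Benjamini-Hochberg adjustment over all 20135 promoters. edgeR's quasi-likelihood test used methylated and unmethylated read sums with an effect per tumor. limma used their log2 ratio after adding 1 read to each. All fits covered all promoters. At 20 reads 1 read is worth 5 percentage points, so single sites are coarse.

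Members and lists were chosen with earlier results of these data known. Members were named if among the 12 lower and 8 higher with the largest difference (FDR under 0.05, 5 or more sites, no overlap), if on a list of imprinted, cancer and nuclear, microRNA host, developmental or immune genes, or if called by edgeR. Alternatives covered coverage, strands, sites, windows, members kept, tests, weighting and each tumor left out. Leaving tumors out of edgeR's fit was chosen after seeing the data. Tests were also run on simulated data, and no outcome of that check is used here. Python 3.11.15, numpy 2.4.6, scipy 1.17.1, pandas 2.3.3, R 4.3.3, edgeR 4.0.16 and limma 3.58.1 were used. Sequences are from the RefSeq copy of GRCm38.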

Additional observations from a re-analysis of the deposited data

Results flagged for a closer look

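Promoters on the X chromosome were outside the autosomal comparison. By the same window and site rule, 9 X-linked lncRNA promoters had 3 or more qualified sites, 229 sites in all. They averaged 28.8% and 23.9% in 344SQP and 25.9% and 20.4% in 344SQR tumors, a difference of −3.15 points with overlapping lines, and 4 were lower and 1 higher by the site test, which called 38.5% of all promoters (29.5% lower). The mean difference was much smaller without 344SQR replicate 2 or without 344SQP replicate 1. Gm14812 had 68.9% and 72.7% against 60.9% and 42.1%. Tsix, the antisense partner of Xist, had 23.5% and 8.49% against 21.0% and 18.7%, and Jpx stayed between 0.810% and 1.04%.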

How the results depend on the processing

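The mean member difference was negative under every alternative: −1.53 points with each site weighted equally, otherwise from −3.22 with 5 or more sites to −5.48 without members within 10 kb of a coding TSS, and from −3.65 to −5.92 with a tumor left out. The values with a tumor left out count each member once. With all 4 tumors, edgeR without a block and limma called 0 members. Members without overlap numbered 279 of 666 with 5 or more sites, against 428 of 974 in the main setting. With a tumor left out they numbered 614 to 757, where fewer tumors make separation easier. The share over all promoters was taken in the main setting alone (32.5% lower and 7.58% higher). The counts under the other settings therefore have no background beside them.

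With the replicate number as a block, edgeR called 160 members (134 lower, 26 higher; 16.4% against 11.8% of all promoters), against 0 without it. A Mantel-Haenszel test with the same block called 572 members, and the share of all promoters it called was not taken. The paired differences of members averaged −2.71 points for number 1 and −6.86 for number 2, with a mean of −4.79, and replicate deviations of the lines had r = 0.686 across the 974 members. No shared batch is stated for tumors of a number. Left-out tumors gave edgeR 0 members each time, an alternative chosen after seeing the data.

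The gap to coding promoters ranged with tumors left out from −2.30 to 0.175 points in the middle CpG class and from −1.38 to 2.12 in the CpG-dense class, so its direction was not stable there. Of 58 followed members, 21 changed sign under some setting, of which 9 had passed the site test. Of the others, Nespas had −11.4 points with the 5′ TSS alone and 7.54 at 50 reads, and Mirt1 had 6.20 without 344SQR replicate 2. Gm26654 and 4930477E14Rik had 5.68 points at 10 reads and 2.93 without 344SQP replicate 1, and Dlx4os −4.80 without 344SQP replicate 2. Gm26917 had −0.624 points at 50 reads, −0.0904 with strands merged, −0.899 with the 5′ TSS alone and −1.59 in the shorter window. With a tumor left out, differences ranged from −9.65 to 9.75 (Gm26917), −6.61 to 9.17 (Gm42418), −7.26 to 10.9 (AY036118), −4.39 to 19.2 (Nkx2-2os), −5.09 to 10.5 (Hoxaas3), −8.95 to 5.97 (Hoxb3os), −17.3 to 5.05 (Mir124-2hg), −3.97 to 0.0453 (Mir124a-1hg) and −12.8 to 1.9 (Tbx3os1).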
